A study of Saccharomyces cerevisiae with 236 samples.

Results

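The Snf1 kinase, the HAP complex and the enzymes of glycerol use in budding yeast (Saccharomyces cerevisiae) are encoded by genes whose deletion strains were followed here through their barcodes. The 10 genes were taken by identifier: SNF1 (YDR477W), SNF4 (YGL115W), HAP2 (YGL237C), HAP3 (YBL021C), HAP4 (YKL109W), HAP5 (YOR358W), CAT8 (YMR280C), ADR1 (YDR216W), GUT1 (YHL032C) and GUT2 (YIL155C). These are 10 of 4993 genes on the array, and they have 11 strains and 22 tags of 5179 strains and 10198 tags, because HAP2 is represented by a pair of strains (chr00_23 and chr7_3).

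Snf1 is the catalytic subunit of the yeast AMP-activated protein kinase and Snf4 is its activating gamma subunit. When glucose runs out, the kinase relieves Mig1 repression and switches on the transcription factors Cat8 and Adr1, which drive genes for gluconeogenesis and for the use of ethanol, fatty acids and glycerol. The HAP complex is a CCAAT-binding activator of respiratory genes in which Hap2, Hap3 and Hap5 bind DNA and Hap4 is the glucose-repressed activation subunit. Glycerol enters central metabolism through the glycerol kinase Gut1 and the mitochondrial FAD-dependent glycerol 3-phosphate dehydrogenase Gut2.

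The study grew pools of deletion strains competitively for 5 generations and read their barcodes (an uptag and a downtag flank each deletion) on 236 tag arrays. The pools came from 3 collections that carry the same barcodes in different backgrounds. YKO_aux_ is a homozygous diploid collection in BY4743 (MATa/alpha, homozygous for his3Δ1, leu2Δ0 and ura3Δ0 and heterozygous for lys2Δ0 and met17Δ0), PB_prot_ is a haploid MATa collection in BY4741 (his3Δ1 leu2Δ0 met17Δ0 ura3Δ0) made prototrophic with the plasmid pHLUM, and BC_prot_ is a haploid MATa collection (can1Δ::STE2pr-SpHIS5 his3Δ1 lyp1Δ0) recovered on minimal media. The treated pools grew in YPG (rich medium with 3% glycerol in place of glucose), in YPD with 32 µM CCCP, 6 µM FCCP, 125 µM PCID16001701 or 200 µM cisplatin, in minimal medium (MM; supplemented for YKO_aux_) or in synthetic complete medium without 1 nutrient.

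The controls were YPD (rich glucose medium) for YPG and cisplatin, YPD with 2% DMSO for the other drugs, and synthetic complete medium (SC) for MM and the dropouts. YPG was run on 2 YKO_aux_, 4 PB_prot_ and 4 BC_prot_ arrays, against 8, 9 and 9 YPD arrays. CCCP and FCCP had 3 arrays each in every collection, against 9, 8 and 7 YPD+DMSO arrays. The study's methods call the arrays biological replicates but the labels tie none to a separate culture, so the p-values measure only the spread between these arrays, which may be technical.

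A tag counted as present in a collection and medium type when every control array (SC, or YPD and YPD+DMSO) was above a background threshold of 7.16 to 7.98 log2 units, and a strain was tested on its present tag with the lowest variation among controls. The fitness defect (FD) score of a strain subtracts each treated array from the median of the controls and takes the median over treated arrays, so a positive score means a lower strain abundance in the treatment. A strain was called lower when the FD score was at least 1.0 and the adjusted p of limma was under 0.05. Of the 11 strains, 6 were tested in YPD media in YKO_aux_, 8 in PB_prot_ and 8 in BC_prot_, and 9, 7 and 7 in the SC media. Counts below are therefore of the strains tested and leave out those whose tags were not above background in the controls. Where groups of arrays are said not to overlap, the share of all strains without overlap is not given, so this is a description only.

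Some arrays stood apart before any comparison. Tags of strains at background in a collection's own starting pool (T0) but strong in both other collections' pools had a median above the threshold on 12 of 65 YKO_aux_ arrays, 2 of 78 PB_prot_ arrays and 23 of 75 BC_prot_ arrays. The YKO_aux_ arrays included both YPG arrays (8.91 and 8.72) and YPD replicates 6, 7 and 8 (9.05, 8.46 and 10.08). The BC_prot_ arrays included YPG replicates 1 and 2 (8.30 and 8.47) and YPD replicates 3, 6 and 7. YPD replicate 8 of YKO_aux_ correlated better with BC_prot_ than with its own collection (r = 0.83 and 0.53 over tags). The same held for 4 PB_prot_ and 6 BC_prot_ arrays with another collection. YPG calls in PB_prot_ and BC_prot_ are given with and without the arrays carrying tags of strains at background at T0. The scores of CAT8, ADR1, GUT1 and GUT2 are given only with those arrays. Per the study's methods, YPG pools were harvested by a liquid handler and other pools by hand, while the labels give manual harvest for all, so harvest and carbon source cannot be told apart here.

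SNF1 had the largest fall in glycerol of the strains tested. In PB_prot_, its downtag read 7.96, 7.68, 6.26 and 5.48 log2 units on the YPG arrays, against 9.31, 9.47 and 9.76 (lowest, median and highest) on the YPD arrays. No YPG array reached the lowest YPD array, and 3 of the 4 were below the background threshold of 7.73. The FD score was 2.50 ± 1.18 (SD, n = 4; adjusted p = 2.83e-10). With arrays below background set to the threshold it was at least 1.74, and at least 1.23 on the uptag, which was below background on all 4 YPG arrays. Without YPG replicate 3 and YPD replicate 8, the PB_prot_ arrays that stood apart, the score was 1.81 and the call held (adjusted p = 2.77e-08).

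SNF1 could not be tested in the other collections' YPD media, because its tags fell below background on at least 1 YPD or YPD+DMSO array. In YKO_aux_ its uptag read 7.07 and 7.40 in YPG, against 7.63, 8.31 and 9.35 (lowest, median and highest) in YPD, and the downtag read 7.55 and 7.94 against 7.88, 8.55 and 9.03. The uptag groups did not overlap and the downtag groups did. In BC_prot_ the downtag read 8.08, 8.37, 8.01 and 6.36 in YPG, against 7.07, 8.43 and 9.26 in YPD, and those groups overlapped. The FD score in YKO_aux_ was at least 1.03 on the uptag, with 1 YPG array below background, and 0.80 on the downtag, and in BC_prot_ at least 0.63 on the uptag, with 3 YPG arrays below background, and 0.39 on the downtag. None of these was tested.

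The SNF1 strain of YKO_aux_ also ranked lower after growth in glucose than in the starting pool. Its uptag ranked at the 35.3 percentile of tags in YPD, against the 95.2 percentile at T0 (medians over arrays), and its downtag at 40.2 against 91.5. The ranges did not overlap: the uptag lay between 27.4 and 61.4 in YPD and between 90.9 and 96.01 at T0. The ranks moved less in PB_prot_ (uptag 47.2 in YPD and 59.9 at T0) and in BC_prot_ (36.5 and 45.8). T0 arrays were normalised apart from the others, so only ranks within an array are compared and no test was made.

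SNF4 was untested in YPD media, because neither of its tags was above background on every control array. The uptag was above background on all YPD arrays of YKO_aux_ and PB_prot_, but on only 7 of 9 and 5 of 8 YPD+DMSO arrays. In BC_prot_ it was above background on 6 of 9 YPD arrays. The downtag stayed near background in PB_prot_ and BC_prot_ (medians of 5.21 and 5.23 in YPD). On the uptag, PB_prot_ YPG arrays read 7.26, 8.86, 8.05 and 7.33, against 7.99, 8.35 and 8.69 (lowest, median and highest) in YPD, which straddles the YPD range. The BC_prot_ uptag read 7.23, 7.81 and 8.50 (lowest, median and highest) in YPG, against 5.54, 7.68 and 8.36 in YPD. In YKO_aux_ the downtag was above the threshold on only 1 of 8 YPD arrays (its median at T0, where arrays were normalised apart, was 8.31). It read 5.12 and 5.14 in YPG, against 5.97, 6.59 and 7.35 (lowest, median and highest) in YPD, without overlap. With no filter on low values the score on that weak tag was 1.45 (adjusted p = 0.00189 in limma). The uptag went the other way, with an FD score of -0.52, not tested. The YKO_aux_ uptag, like SNF1, ranked lower in YPD than at T0 (28.4 in YPD and 63.03 at T0). SNF4 was tested in the SC media of YKO_aux_ only, where its scores lay between -0.34 and 0.67 and none passed.

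**Figure D1:**
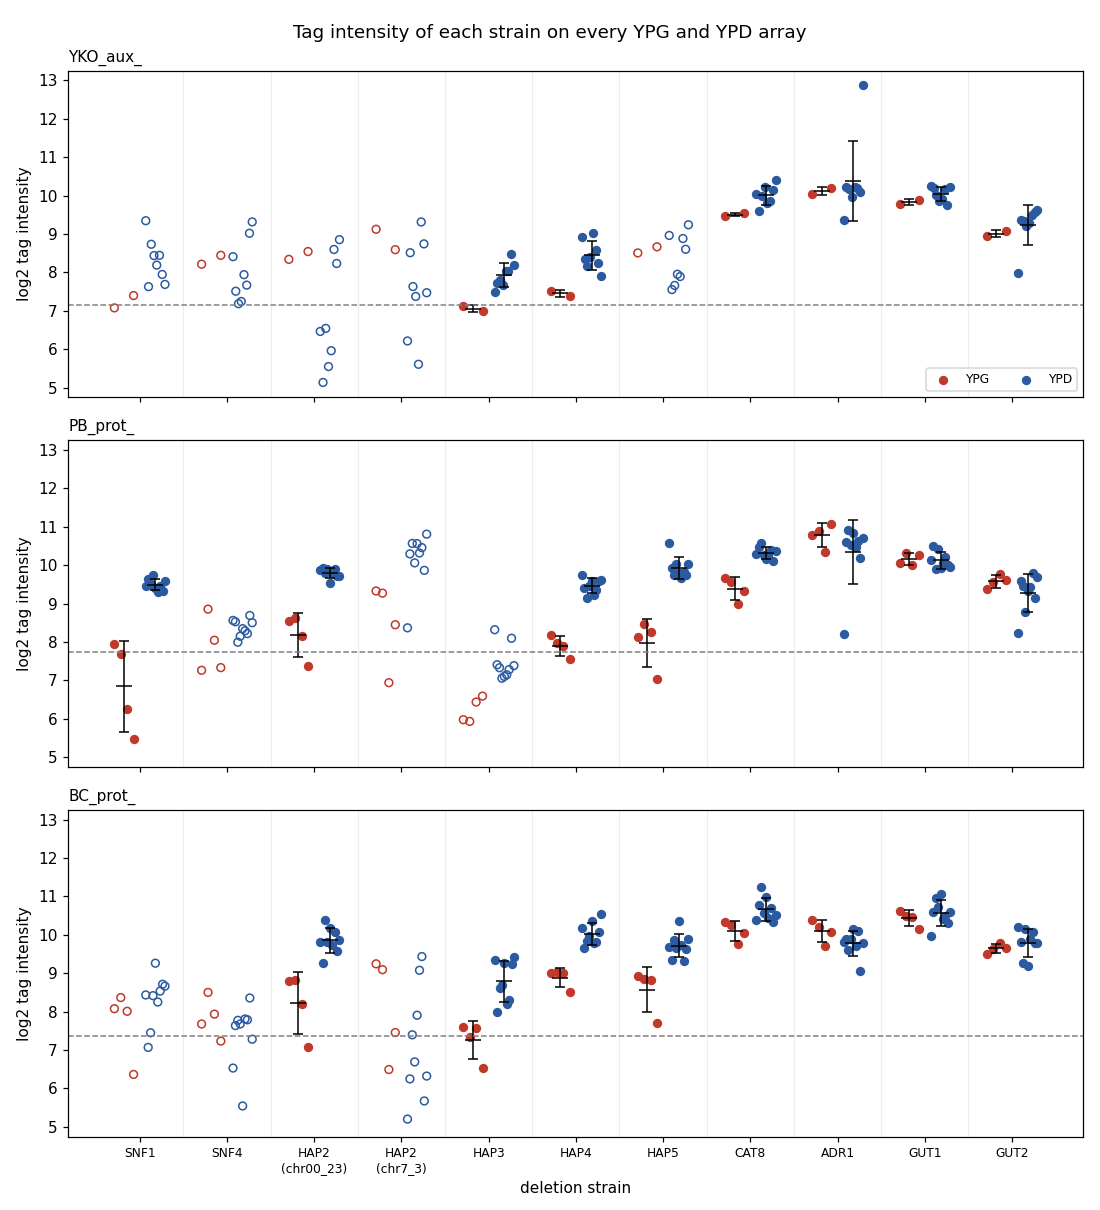
Log2 tag intensity (y axis) of each deletion strain (x axis) on every YPG array (red, left) and YPD array (blue, right) of the 3 collections, on the tag used in the test. Filled points were tested, with black bars for the mean and SD, open points were not tested and show the tag stronger at T0, and the dashed line is the background threshold. In PB_prot_ the YPG points of SNF1, HAP2 (chr00_23), HAP4 and HAP5 all lie below the YPD points, while GUT1 and GUT2 overlap in all 3 collections.

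HAP2, the DNA-binding subunit followed here through strain chr00_23, fell in glycerol in both prototrophic collections. In PB_prot_ its downtag read 8.54, 8.62, 8.16 and 7.37 in YPG, against 9.54, 9.81 and 9.93 (lowest, median and highest) in YPD. In BC_prot_ it read 8.80, 8.83, 8.19 and 7.09, against 9.27, 9.83 and 10.38. Neither pair of groups overlapped. The FD scores were 1.46 ± 0.57 in PB_prot_ (SD, n = 4; adjusted p = 1.34e-10) and 1.33 ± 0.82 in BC_prot_ (SD, n = 4; adjusted p = 1.30e-06).

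The other HAP2 strain, chr7_3, was untested in every set. In PB_prot_ its downtag read 9.33, 9.27, 6.94 and 8.45 in YPG, against 8.37, 10.32 and 10.81 in YPD, where the low value is replicate 1 and all other YPD arrays read at least 9.87. Its FD score in PB_prot_ was 1.46, close to that of strain chr00_23, but a YPD+DMSO array at 6.97, below background, kept it out of the test.

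The HAP2 strain chr00_23 was at background in the YKO_aux_ starting pool and yet appeared on some arrays. Its downtag lay between 4.74 and 6.16 at T0, and was above the threshold on 6 of 31 arrays of YPD media. All 6 were the arrays on which tags of other missing strains were also above the threshold: it read 8.34 and 8.54 in YPG, 8.60, 8.23 and 8.85 in YPD replicates 6 to 8, and 7.99 in YPD+DMSO replicate 9. The highest value on the other arrays was 6.54. In BC_prot_, where the chr7_3 downtag was at most 6.11 at T0, 12 of 36 arrays had it above the threshold and 9 of those were among the 10 arrays with tags of missing strains. In YKO_aux_, the chr7_3 downtag was not confined to those arrays. It had a T0 median of 7.20 and was above the threshold on 15 of 31 arrays. These included all 6 arrays carrying tags of missing strains, where it read at least 7.47. It reached 8.85 on the others. What put those tags on the arrays was not tested.

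**Figure D2:**
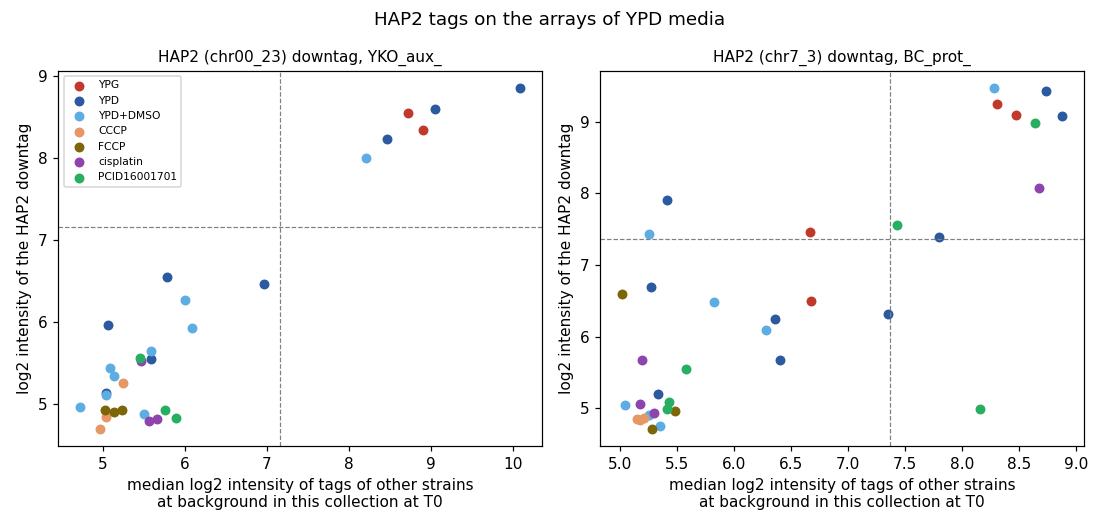
Log2 intensity of a HAP2 downtag (y axis) against the median log2 intensity of tags of other strains at background in the same collection at T0 (x axis), 1 point per array of YPD media, coloured by condition, with dashed lines at the background threshold. In YKO_aux_ (left) the 6 arrays with a HAP2 signal are the 6 arrays to the right of the threshold, both YPG arrays among them, and in BC_prot_ (right) 9 of 12 arrays with a signal lie to the right.

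HAP3, another DNA-binding subunit, was called lower in YPG in BC_prot_. There its downtag read 7.60, 7.34, 7.57 and 6.53 in YPG, against 8.00, 8.70 and 9.42 (lowest, median and highest) in YPD, with an FD score of 1.25 ± 0.50 (SD, n = 4; adjusted p = 1.27e-04). In YKO_aux_ it read 7.12 and 6.99 in YPG, both below background, against 7.50, 7.92 and 8.47 in YPD. The YKO_aux_ score was 0.87 ± 0.09 (SD, n = 2; adjusted p = 0.0379), at least 0.76 when the YPG arrays are set to the threshold, and so under the FD cutoff. In PB_prot_, where HAP3 was untested, the downtag was below the threshold of 7.73 on all 4 YPG arrays and above it on 7 of 9 YPD arrays, so its fall was at least 0.10, and the uptag was above it on only 2 of 9 YPD arrays.

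HAP4, the activation subunit, fell in both prototrophic collections and was called in PB_prot_. In PB_prot_ its downtag read 8.18, 7.97, 7.89 and 7.56 in YPG, against 9.16, 9.47 and 9.76 (lowest, median and highest) in YPD, and the FD score was 1.54 ± 0.26 (SD, n = 4; adjusted p = 3.87e-11). In BC_prot_ it read 9.00, 9.02, 9.01 and 8.52, against 9.65, 9.97 and 10.55, with a score of 0.96 ± 0.25 (SD, n = 4; adjusted p = 7.38e-06) that just missed the cutoff. In YKO_aux_ the uptag read 7.53 and 7.39 in YPG, against 7.91, 8.37 and 9.02 in YPD, with a score of 0.91 ± 0.09 (SD, n = 2) that did not pass (adjusted p = 0.122). The YPG and YPD groups did not overlap in any collection on those tags, but the YKO_aux_ downtag gave a score of only 0.30.

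HAP5, the remaining DNA-binding subunit, fell in the prototrophic collections. In PB_prot_ its downtag read 8.13, 8.48, 8.25 and 7.05 in YPG, against 9.66, 9.84 and 10.58 (lowest, median and highest) in YPD. In BC_prot_ it read 8.93, 8.85, 8.82 and 7.70, against 9.33, 9.68 and 10.36. The FD scores were 1.65 ± 0.64 (SD, n = 4; adjusted p = 8.57e-10) in PB_prot_ and 0.85 ± 0.58 (SD, n = 4; adjusted p = 2.98e-04) in BC_prot_, the second below the cutoff. In YKO_aux_, where it was untested, HAP5 read 8.51 and 8.67 in YPG, inside its YPD range of 7.55 to 9.24, and its T0 median was 7.43. The HAP5 uptag had T0 medians of 6.94, 4.94 and 5.06 in YKO_aux_, PB_prot_ and BC_prot_. T0 arrays were normalised apart, so their values are not compared with the threshold or the other arrays.

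CAT8, an activator of gluconeogenic genes, showed a smaller fall. In PB_prot_ its uptag read 9.66, 9.57, 8.99 and 9.32 in YPG, against 10.12, 10.30 and 10.58 (lowest, median and highest) in YPD, without overlap, and the FD score was 0.86 ± 0.30 (SD, n = 4; adjusted p = 3.28e-07). Its BC_prot_ downtag read 10.33, 10.25, 9.77 and 10.05, against 10.34, 10.56 and 11.25, and its YKO_aux_ uptag 9.47 and 9.54, against 9.61, 10.02 and 10.40. The YPG arrays were thus below all YPD arrays in each collection, but in BC_prot_ only by 10.33 against 10.34. YKO_aux_ had only 2 YPG arrays. The BC_prot_ score was 0.41 ± 0.25 (SD, n = 4; adjusted p = 0.0184) and the YKO_aux_ score 0.52 ± 0.05 (SD, n = 2; adjusted p = 0.266). None reached the cutoff of 1.0.

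ADR1, an activator of genes for ethanol and glycerol use, did not fall detectably in YPG. Its uptag read 10.78, 10.90, 10.35 and 11.08 in PB_prot_ YPG, against 8.20, 10.60 and 10.91 (lowest, median and highest) in YPD. In BC_prot_ it read 10.39, 10.19, 9.71 and 10.08, against 9.06, 9.82 and 10.15, and in YKO_aux_ 10.04 and 10.20, against 9.37, 10.18 and 12.87. The groups overlapped in each collection. The FD scores were -0.24 in PB_prot_, -0.31 in BC_prot_ and 0.07 in YKO_aux_ (adjusted p = 0.571, 0.388 and 1.00). The 95% interval of the mean difference between YPD and YPG reached 0.48 in PB_prot_ and 0.14 in BC_prot_, but 1.13 in YKO_aux_. There, YPD replicate 8 read 12.87, against 9.37 to 10.24 on the other YPD arrays, and that array also stood apart by its other strains.

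No fall of GUT1 or GUT2, whose products carry out the first steps of glycerol breakdown, was detected in glycerol medium in any collection. GUT1 read 9.77 and 9.88 in YKO_aux_ YPG, against 9.75, 10.09 and 10.24 (lowest, median and highest) in YPD. In PB_prot_ it read 10.05, 10.32, 10.0001 and 10.26, against 9.89, 10.06 and 10.50, and in BC_prot_ 10.63, 10.50, 10.47 and 10.15, against 9.98, 10.60 and 11.07. All the YPG values lay inside the YPD ranges. The FD scores were 0.27 in YKO_aux_, -0.09 in PB_prot_ and 0.11 in BC_prot_, and the adjusted p-values were 0.945, 0.910 and 0.633.

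GUT2 gave similar values on its uptag. It read 8.95 and 9.07 in YKO_aux_ YPG, against 7.97, 9.35 and 9.63 (lowest, median and highest) in YPD, where the low value is replicate 1. In PB_prot_ it read 9.38, 9.56, 9.77 and 9.61, against 8.25, 9.44 and 9.79, and in BC_prot_ 9.51, 9.64, 9.79 and 9.65, against 9.19, 9.81 and 10.21. These values too lay inside the YPD ranges. The FD scores were 0.34, -0.15 and 0.16, with adjusted p-values of 0.982, 0.317 and 0.572. The 95% intervals of the mean fall ended at 0.61, 0.24 and 0.47 for GUT1 and at 0.74, 0.07 and 0.48 for GUT2 in YKO_aux_, PB_prot_ and BC_prot_, so a fall of 1.0 log2 unit lay outside all 6 intervals.

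In all, 4 of 8 tested strains were called lower in YPG in PB_prot_ (SNF1, HAP2, HAP4 and HAP5), against 4.83% of all strains tested there. In BC_prot_ it was 2 of 8 (HAP2 and HAP3), against 0.860% of all strains. In YKO_aux_ it was 0 of 6, against 2.62% of all strains, and limma gave 1 strain (HAP3) an adjusted p under 0.05 without regard to size, against 3.46% of all strains. By adjusted p alone, 5 of 8 strains passed in PB_prot_ and 5 of 8 in BC_prot_ (7.30% and 4.67% of all strains), CAT8 being the added strain in PB_prot_ and HAP4, HAP5 and CAT8 in BC_prot_. The median FD score of the tested strains was 1.16 in PB_prot_, 0.63 in BC_prot_ and 0.43 in YKO_aux_, against -0.03, 0.11 and 0.02 over all strains.

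The BC_prot_ count changed when the arrays carrying tags of missing strains were left out or kept alone. Without them, with 2 YPG and 6 YPD arrays left, HAP2 (2.18), HAP3 (1.19), HAP4 (1.36) and HAP5 (1.41) were all called. With those arrays only, 2 YPG and 3 YPD, the scores were 1.26, 0.84, 0.80 and 0.85 and none was called. HAP2 was then still over the FD cutoff and lost its call on adjusted p (0.262 in limma). The BC_prot_ YPG arrays without such tags are replicates 3 and 4, and replicate 4 was the lowest YPG array of each of these strains. The tags and that array therefore cannot be told apart here. In YKO_aux_ both YPG arrays are of that kind, so no value without them exists. In PB_prot_ the same 4 strains were called without them, at 1.81 for SNF1, 1.29 for HAP2, 1.48 for HAP4 and 1.76 for HAP5. The part of these tags in the scores was not tested.

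The differences in YPG FD score between collections did not pass the test for any strain, so a call in 1 collection alone does not show a difference. The largest was HAP5, whose fall was 0.81 larger in PB_prot_ than in BC_prot_ (95% interval 0.17 to 1.44, adjusted p = 0.169, difference of means). HAP4 was 0.58 larger in PB_prot_ than in YKO_aux_ (0.02 to 1.14, adjusted p = 0.697) and HAP2 differed by -0.01 between PB_prot_ and BC_prot_ (-0.67 to 0.65). Among all shared strains, 0.738%, 0.0295% and 2.42% differed between PB_prot_ and YKO_aux_, BC_prot_ and YKO_aux_, and PB_prot_ and BC_prot_. HAP4 on its YKO_aux_ downtag, the tag used once YPD+DMSO replicate 1 is left out, differed from PB_prot_ by 1.37 (adjusted p = 0.00852).

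CCCP and FCCP, ionophores that let protons leak across the inner mitochondrial membrane, were given in YPD, where glucose is present, and few of the strains responded. In CCCP, 1 of 6 strains was called in YKO_aux_ (2.85% of all strains), 0 of 8 in PB_prot_ (4.16%) and 0 of 8 in BC_prot_ (0.625%). In FCCP the counts were 0 of 6, 0 of 8 and 0 of 8 (2.32%, 2.91% and 0.678% of all strains), with no strain at an adjusted p under 0.05 in limma. The FCCP scores ranged from -0.37 (GUT2, PB_prot_) to 0.63 (HAP4, YKO_aux_).

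The strain called in CCCP was HAP4. In YKO_aux_ its uptag read 6.76, 7.13 and 7.73 in CCCP, against 8.06, 8.72 and 9.48 (lowest, median and highest) in YPD+DMSO, without overlap, and 2 of the 3 CCCP arrays were below the threshold of 7.16. The FD score was 1.59 ± 0.49 (SD, n = 3; adjusted p = 2.70e-04). The downtag read 7.23, 7.71 and 7.77, against 8.32, 8.51 and 10.19, again without overlap. Without YPD+DMSO replicate 1 the test moves to that downtag and the score is 0.77 (adjusted p = 0.00718), below the cutoff.

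HAP3 in YKO_aux_ passed on adjusted p alone, reading 7.26, 7.80 and 7.42 in CCCP, against 7.99, 8.20 and 9.47 (lowest, median and highest) in YPD+DMSO (score 0.78 ± 0.28, SD, n = 3; adjusted p = 0.00583). In PB_prot_, HAP5 read 9.02, 8.78 and 8.75 in CCCP, against 9.57, 9.77 and 10.34 (score 0.99 ± 0.15, SD, n = 3; adjusted p = 0.00171). HAP2 in PB_prot_ read 8.86, 8.84 and 9.22, against 9.39, 9.76 and 9.79 (score 0.90 ± 0.21, SD, n = 3; adjusted p = 0.00301). The share of all strains passing on adjusted p alone in CCCP is not given here. HAP5 was called without CCCP replicate 1 (1.00). SNF1 scored 0.26 in PB_prot_ (adjusted p = 0.838), and CAT8 scored -0.09, -0.07 and -0.13 in YKO_aux_, PB_prot_ and BC_prot_.

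Several falls were larger in glycerol than in an uncoupler. In PB_prot_ the fall in YPG exceeded that in CCCP by 2.41 for SNF1 (95% interval 1.64 to 3.18, adjusted p = 2.49e-04), 1.16 for HAP4 (0.74 to 1.57), 0.97 for CAT8 (0.59 to 1.36) and 0.90 for HAP2 (0.44 to 1.35). These 4 of 8 strains passed, against 0.872% of all strains with a larger fall in YPG, and HAP5 did not (0.96, adjusted p = 0.102). With SNF1 arrays below background set to the threshold, its difference was 1.46. With every tag above background only 2 strains could be tested, and 1 of them, SNF1, passed. Against FCCP, 5 of 8 passed in PB_prot_ (SNF1, HAP5, HAP4, HAP2 and CAT8; 2.74% of all strains) with differences of 0.71 to 2.62.

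In BC_prot_, 4 of 8 strains fell more in YPG than in FCCP (1.20% of all strains): HAP3 by 1.66, HAP5 by 1.35, HAP2 by 1.22 and HAP4 by 1.08. That count was 0 without YPG replicate 4 or without FCCP replicate 2, and 2 without FCCP replicate 3. No strain passed against CCCP in BC_prot_ (0.182%), nor against either uncoupler in YKO_aux_ (0.534% for CCCP and 0.585% for FCCP). The YKO_aux_ difference between YPG and CCCP was -0.54 for HAP4 (-1.44 to 0.36) and 0.00 for HAP3 (-0.67 to 0.67). GUT1, GUT2 and ADR1 passed none of these tests. YPG and uncoupler screens had separate controls within each collection, YPD and YPD+DMSO. The study chose the uncoupler doses to slow growth only in part, and other doses were not screened, so these differences hold for those doses.

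**Figure D3:**
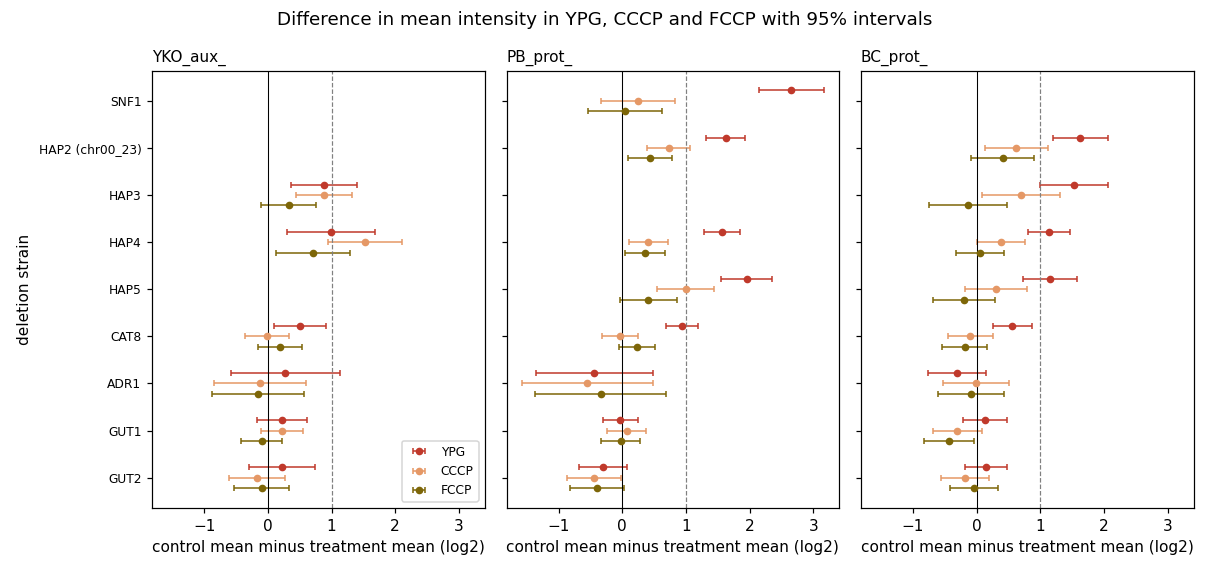
Control mean minus treatment mean in log2 units (x axis; positive means lower in the treatment) of each tested strain (y axis) in YPG (red), CCCP (orange) and FCCP (brown) in the 3 collections, with 95% confidence intervals from limma and a dashed line at 1.0. In PB_prot_ the SNF1, HAP2, HAP4, HAP5 and CAT8 intervals for YPG lie clear of both uncouplers, though HAP5 did not pass the test against CCCP. The GUT1 intervals for YPG include 0 in all 3 panels.

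Cisplatin, PCID16001701 and DMSO alone gave no call among the strains in any collection: 0 of 18 tests in YKO_aux_, 0 of 24 in PB_prot_ and 0 of 24 in BC_prot_. In cisplatin 0.993%, 1.32% and 1.54% of all strains were called in YKO_aux_, PB_prot_ and BC_prot_, in PCID16001701 0.153%, 0.0249% and 0.0521%, and in DMSO alone 0.255%, 0.0249% and 0%. By adjusted p alone, CAT8 was higher in cisplatin in PB_prot_ (FD score -0.51, adjusted p = 0.0269) and ADR1 lower in BC_prot_ (0.55, adjusted p = 0.0292). The share of all strains passing on adjusted p alone in cisplatin is not given here.

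ADR1 in PB_prot_ cisplatin had a score over the cutoff but a wide spread. The uptag read 7.11, 10.66, 9.34 and 9.34, against 8.20, 10.60 and 10.91 (lowest, median and highest) in YPD, so the groups overlapped. The score was 1.26 ± 1.47 (SD, n = 4; adjusted p = 0.134), and it was called without cisplatin replicate 2 (adjusted p = 0.0178). Replicate 1 was the lowest array in cisplatin and in YPD, and in YPD+DMSO it read 8.33, against 10.50 to 10.84 on the other arrays. The downtag was below background on all 4 cisplatin arrays and above it on 5 of 9 YPD arrays, which gives a fall of at least 0.19.

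Few tests in synthetic media gave a call. Over the dropouts, 0 of 81 tests were called in YKO_aux_, 1 of 84 in PB_prot_ and 0 of 84 in BC_prot_, and over minimal medium 0 of 9, 0 of 7 and 0 of 7. The share of all strains called in PB_prot_ dropouts was 2.70% in LEU-, 2.24% in URA- and 2.16% in HIS-, 0.462% in ARG- and in LYS-, 0.243% in TRP-, 0.170% in MET-, 0.121% in ADE-, 0.0486% in SER- and in THR-, and 0% in GLN- and GLY-. In YKO_aux_ it was 0.413% in LYS-, 0.390% in TRP-, 0.298% in ARG-, 0.160% in ADE-, 0.115% in MET-, 0.0458% in THR- and 0% in GLN-, GLY- and SER-. In BC_prot_ it was 0.125% in TRP-, 0.0750% in ADE- and in LEU-, 0.05% in HIS-, MET- and URA-, and 0% in the other dropouts. Minimal medium called 1.17%, 4.59% and 0.600% of all strains in YKO_aux_, PB_prot_ and BC_prot_. The median score of the tested strains there was 0.19, 0.44 and 0.07, against 0.004, -0.12 and -0.06 over all strains. HAP2 in PB_prot_ passed on adjusted p alone in minimal medium, reading 9.01, 9.47, 9.53 and 9.45, against 9.88, 9.90, 10.10 and 10.17 in SC (score 0.54 ± 0.24, SD, n = 4; adjusted p = 0.00220). That share by adjusted p alone was 8.72% of all strains.

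The only dropout call was SNF1 in leucine dropout of PB_prot_, where 2.70% of all strains were called. Its downtag read 6.77, 8.44 and 7.67, against 8.91, 8.68, 9.28 and 8.45 in SC, with 2 of the 3 below the background threshold of 7.98, and the score was 1.12 ± 0.83 (SD, n = 3; adjusted p = 0.0396). With the replicate number as a block the score was 1.33 and the call was lost (adjusted p = 0.0712). It was also lost without LEU- replicate 1 (0.74) or 3 and without SC replicate 1, 2 or 3 (adjusted p between 0.0563 and 0.349). The uptag read 7.43, 8.46 and 8.50 (lowest, median and highest) in LEU-, against 7.885, 8.46 and 9.35 in SC. These groups overlapped with like medians, and the uptag was above background on 2 of 3 LEU- and 3 of 4 SC arrays.

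Uracil dropout gave a like picture on the downtag. The uptag read 6.45, 6.76 and 8.17 (lowest, median and highest) in PB_prot_ URA-, against 7.885, 8.46 and 9.35 in SC. It was above background on 1 of 3 URA- arrays. The SNF1 downtag read 8.09, 6.38 and 8.39 in PB_prot_ URA-, and the score was 0.71 ± 1.08 (SD, n = 3; adjusted p = 0.0429), below the cutoff. With the replicate block it was 1.34 and was called (adjusted p = 0.0488), as it was without URA- replicate 1 (1.41) or 3 (1.56), against 2.24% of all strains called in URA-. Histidine dropout, in which 2.16% of all strains were called, gave SNF1 a score of 0.48 (adjusted p = 0.473), and 0.79 with the block (adjusted p = 0.0214). The lowest SNF1 score in a dropout of PB_prot_ was -0.54. In YKO_aux_ SNF1 had a median score of -0.45 over 10 SC comparisons and -1.16 in glycine dropout, which did not pass (adjusted p = 0.998).

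The remaining strains had no score past the test in SC media in the main fit. The largest was HAP3 in minimal medium of YKO_aux_, at 0.995 with 2 of 3 arrays below background (adjusted p = 0.710). HAP3 scored 0.83 in minimal medium of BC_prot_ (adjusted p = 0.864). HAP5 scored 0.53 in minimal medium of PB_prot_ (adjusted p = 0.0784), and 0.60 with the replicate block (adjusted p = 0.00873). GUT1 scores lay between -0.08 and 0.29 in PB_prot_, between -0.21 and 0.44 in BC_prot_ and between 0.19 and 0.60 in YKO_aux_. GUT2 reached 0.90 in glycine dropout of BC_prot_ (adjusted p = 0.904). HAP4 in BC_prot_ scored below 0 in all 13 SC comparisons, from -0.80 to -0.25, and CAT8 from -0.69 to -0.09, but these comparisons share 3 SC control arrays and none passed the test.

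**Figure D4:**
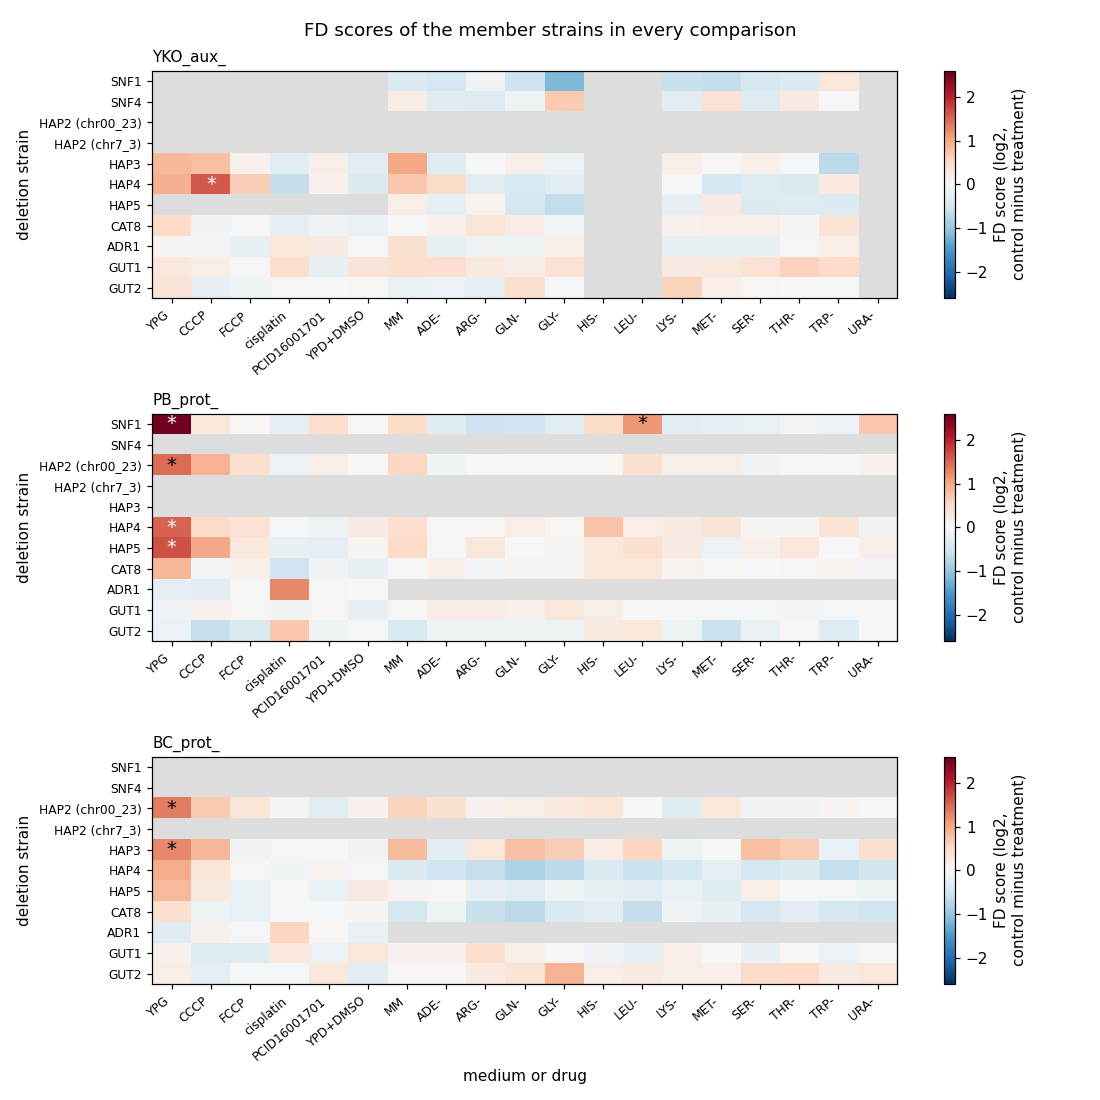
FD score (colour; red means lower in the treatment) of each deletion strain (rows) in every medium or drug (columns) in the 3 collections. Grey cells were not tested or not screened and stars mark calls. The 8 stars are 6 in YPG, HAP4 in CCCP in YKO_aux_ and SNF1 in LEU- in PB_prot_.

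Other genes of the same pathways, in lists drawn up with earlier results of these data known, place these values. Of 15 listed genes whose promoters the HAP complex is known to act on, which encode respiratory chain subunits and citric acid cycle enzymes, 8 of 9 tested were called lower in YPG in PB_prot_ (4.83% of all strains), 3 of 7 in YKO_aux_ (2.62%) and 1 of 4 in BC_prot_ (0.860%). In CCCP it was 2 of 9 in PB_prot_ (CYT1 at 1.18 and QCR2, a complex III subunit, at 1.01; 4.16% of all strains), 1 of 7 in YKO_aux_ (CYT1 at 1.23; 2.85%) and 0 of 4 in BC_prot_, and in FCCP none was called. QCR2 was named after its values were seen. The largest scores were CYT1 (cytochrome c1; 1.86), LPD1 (dihydrolipoamide dehydrogenase; 1.52) and QCR8 (complex III; 1.44) in PB_prot_. In YKO_aux_ they were CYT1 (1.81), COX5A (cytochrome c oxidase; 1.32) and CIT1 (citrate synthase; 1.12), and in BC_prot_ COX5A (1.54). The list medians were 1.41, 0.99 and 0.89 in PB_prot_, YKO_aux_ and BC_prot_.

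The lists closer to Snf1 and to glycerol gave no call in YPG. None of 15 tested gluconeogenesis and ethanol or acetate use genes was called in any collection, with medians of 0.07, -0.07 and 0.16 in YKO_aux_, PB_prot_ and BC_prot_. By adjusted p alone, MLS1 (malate synthase; 0.97, adjusted p = 1.07e-04) and FBP1 (fructose-1,6-bisphosphatase; 0.88, adjusted p = 0.00105) were lower in PB_prot_, both named after their values were seen. ERT1 of the same list was higher there (-0.39, adjusted p = 0.0273), and was also named after its values were seen. Of 12 glycerol genes, 0 of 9, 0 of 11 and 0 of 10 were called, with medians of 0.21, 0.10 and 0.14. By adjusted p alone, GPP1 was higher in PB_prot_ (-0.61, adjusted p = 7.11e-05) and BC_prot_ (-0.86, adjusted p = 0.00555). NDE1 was higher in PB_prot_ (-0.62, adjusted p = 0.00635). GPP1 and NDE1 were named after their values were seen. Of 15 listed partners, regulators and repressor targets of Snf1, 0 of 15, 0 of 14 and 0 of 14 were called. In the uncouplers, that list held 2 calls in YKO_aux_ alone, REG1 (a regulatory subunit of the phosphatase that opposes Snf1) and MIG3 (a repressor related to Mig1), in both CCCP and FCCP (2.85% and 2.32% of all strains). REG1 scored 1.81 in CCCP and 1.495 in FCCP, and MIG3, below background on all 3 CCCP arrays, scored 2.34 (at least 1.26 against the threshold) and 1.74. REG1 and MIG3 were named after their values were seen.

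HAP4 was the only one of the strains called in YKO_aux_, and over the 16 YKO_aux_ comparisons the profiles closest to it among 3912 strains were MSW1 (mitochondrial tryptophanyl-tRNA synthetase), FPR2 (a membrane peptidyl-prolyl isomerase) and PPA2 (mitochondrial pyrophosphatase), each with Pearson r = 0.90 as a description. The comparisons share control arrays. In CCCP these 3 strains scored 2.38, 2.18 and 2.03, against 1.59 for HAP4.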

How the data were processed

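The deposited values were 1 log2 intensity per tag per array. The authors took them from TAG4 barcode arrays and levelled uptags and downtags to their medians within each collection and medium type, with T0 arrays apart. The study's methods describe a batch correction with ComBat, and whether the deposited values include it is not given in the sources used here. The choice of tag and the FD score followed the study's methods, and a strain needed 1 present tag, with every tag as an alternative. Background was set per collection and medium type with a 2-component Gaussian mixture on the control arrays (posterior above 0.5). Tests used limma 3.58.1 in R 4.3.3 with 1 mean per condition and Benjamini-Hochberg adjustment over all strains tested. Alternatives covered presence rules, tags, quantile normalization, controls, replicate block and left-out arrays. Named genes were all 10 members, the 3 largest calls in YPG of each list and the 3 profiles most like a called YKO_aux_ strain. The members and lists were chosen with earlier results of these data known. Same-numbered arrays deviated together (every correlation over 0.1) in 8 of 9 YKO_aux_ and 12 of 12 PB_prot_ dropouts and in no comparison in YPD media or MM. The BC_prot_ dropouts had at most 2 such pairs each and were not counted as paired for that reason. The main fits leave the pairing out, and the replicate block is the alternative that uses it. The number of arrays limits the precision. BC_prot_ arrays with contradictory labels (2) were not used. The fits were tested on simulated data.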

Additional observations from a re-analysis of the deposited data

Results flagged for a closer look

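Among the groups of 4 to 10 arrays, 14 (11.6%) had 1 array far from the rest by Dixon's gap ratio at the 95% level, which chance gives in about 1 in 20 groups. ADR1 was the most frequent gene. Its uptag read 12.87 in YKO_aux_ YPD replicate 8, 8.33 in PB_prot_ YPD+DMSO replicate 1, 8.20 in PB_prot_ YPD replicate 1 and 9.61 in BC_prot_ YPD+DMSO replicate 3, with the nearest other arrays at 10.24, 10.50, 10.19 and 9.99. GUT2 read 7.97 in YKO_aux_ YPD replicate 1 (nearest 9.21) and 9.74 in BC_prot_ YPD+DMSO replicate 7 (nearest 10.07).

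BC_prot_ YPG replicate 4 was low for HAP4 (8.52, nearest 9.00) and HAP5 (7.70, nearest 8.82). HAP2 (chr00_23) read 9.39 in PB_prot_ YPD+DMSO replicate 3, 9.01 in PB_prot_ MM replicate 1 and 9.72 in BC_prot_ MM replicate 1. HAP3 read 9.47 in YKO_aux_ YPD+DMSO replicate 1, HAP4 read 9.84 in PB_prot_ YPD+DMSO replicate 6 and HAP5 read 10.58 in PB_prot_ YPD replicate 1.

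HAP2 tags that were at background at T0, and untested because some control arrays were below the threshold, were above it on other arrays. The chr00_23 downtag reached 8.85 on YKO_aux_ arrays of YPD media (6 of 31 arrays above the threshold) and 8.64 on SC media (7 of 34). The chr7_3 downtag reached 9.47 on BC_prot_ arrays of YPD media (12 of 36) and 9.18 on SC media (14 of 39). No difference between collections passed its test.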

How the results depend on the processing

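No called direction reversed. In YPG, the PB_prot_ count of 4 was 3 at an FD score of 1.5, 5 after quantile normalization and with the replicate block, 1 (of 2 tested) with every tag above background, and 4 whichever YPG array was left out. The BC_prot_ count of 2 was 0 at an FD score of 1.5, with every tag above background and on arrays carrying tags of missing strains only, 1 at a posterior above 0.9, and 4 with the difference of means, without the arrays carrying those tags and with the replicate block. The YKO_aux_ count of 0 was 2 with YPD and YPD+DMSO together as control, 1 with no filter (SNF4, on a tag below background in YPG), 3 after quantile normalization and 1 with the replicate block. In CCCP, the YKO_aux_ count of 1 was 0 with the replicate block and without YPD+DMSO replicate 1, and the PB_prot_ count of 0 was 1 with the pooled control and the block and 0 to 1 over left-out arrays. In dropouts of PB_prot_ the count of 1 was 2 with the difference of means, 0 at 1.5, with every tag, no filter, posterior above 0.9, quantile normalization and a fit of treatment and control alone, and 0 to 2 over left-out arrays. It was 0 to 1 for MM in YKO_aux_ (HAP3 called without MM replicate 2) and for the other drugs in PB_prot_, where no filter gave 1 (ADR1, on a tag below background in cisplatin).

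Members differing between YPG and CCCP numbered 1 with every tag and 0 with the replicate block in PB_prot_ (4 in the main fit), 1 in BC_prot_ without arrays carrying tags of missing strains, and 1 with no filter and 2 after quantile normalization in YKO_aux_. Between YPG and FCCP they numbered 1 with every tag and 2 with the block in PB_prot_, 1 and 1 in BC_prot_ with 0 to 4 over left-out arrays, and 1 and 1 in YKO_aux_ with no filter and quantile normalization. Between collections, PB_prot_ and BC_prot_ differed in 1 member with the mean of controls above background and with no filter (SNF1) and in 0 to 1 over left-out arrays (HAP5 without BC_prot_ YPG replicate 4). PB_prot_ and YKO_aux_ differed in 1 with the mean of controls, 2 with no filter, 1 after quantile normalization and 1 without YKO_aux_ YPD+DMSO replicate 1. The settings on arrays with tags of missing strains, the mean of controls and that YPD+DMSO array were chosen after seeing the data. The causes were not tested.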
